A study of Drosophila melanogaster with 3 samples.

Results

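The genes described here encode the subunits of the proteasome of Drosophila melanogaster. They are the protein-coding genes of the dm6 annotation whose symbols begin with Prosalpha, Prosbeta, Rpn or Rpt followed by a digit, and there are 48 of them among 13986 protein-coding genes. By symbol alone, 32 are canonical subunits, and the other 16 carry an added R or T and are called paralogs here. Chromatin was immunoprecipitated with an antibody against GFP from whole larvae at the wandering stage of the third instar, males and females pooled. The tagged protein was Broad, a transcription factor with zinc fingers that acts in the response to the moulting hormone ecdysone. All samples form 1 group of 3 biological replicates, numbered 2, 3 and 4, from 1 transgenic line that stably expresses br-RE with GFP at its C-terminus. What drives the transgene, and the state of the endogenous br gene, are not stated in the labels. Age in days is given as unknown. Because larvae were taken whole, fewer cells with binding and weaker binding per cell cannot be told apart.

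The proteasome degrades proteins tagged with ubiquitin. Its core particle is a barrel of stacked rings, in which alpha subunits gate the entry and beta subunits hold the proteolytic sites. The regulatory particle, built from Rpt ATPases and Rpn non-ATPase subunits, binds and unfolds substrates and removes their ubiquitin. Many of the paralogs are known in flies as subunits of the testis.

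The authors deposited an optimal list of 2533 peaks, a pooled list of 27389 regions and 30000 regions for each replicate. The pooled and replicate lists reach down to regions of background strength. The signal of a region is the authors' own value, and ranks below run from 1, the strongest, within each list. Replicate 4 stood apart from the others. It had no mitochondrial region, against 23 and 36 in replicates 2 and 3, and its regions had a median width of 344 bp, against 420 and 400 bp. Counts over all 3 replicates are therefore also given without it.

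A peak of the optimal list lay within 1 kb of a TSS of 6 proteasome genes. These were Rpn5, Rpn3, Rpt5, Rpn6, Rpn2 and Prosalpha7, so that 5 of the 6 encode subunits of the regulatory particle and 1 encodes a subunit of the alpha ring. They made up 12.5% of the 48 genes, near the 13.6% of all protein-coding genes with such a peak. All 6 were canonical subunits (18.8% of 32), and none of the 16 paralogs had one. By subcomplex they were 4 of 12 canonical Rpn genes, 1 of 6 Rpt, 1 of 7 alpha and 0 of 7 beta genes. With counts this small, no preference among the subcomplexes can be read from them. Signals of the peaks ran from 93.6 to 161, where the optimal list runs from 88.3 to 6030 with a median of 128. Those at Rpn2 (104) and Prosalpha7 (93.6) lay below the median, the latter near the lower end. Each carried a −log10 q of 2.83, the highest of that list. Its values run only from 2.66 to 2.83, so this does not set the peaks apart.

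Every one of the 6 peaks lay at a head-to-head promoter, where a second gene starts on the opposite strand within 1 kb. The neighbours were Hat1, l(2)37Bb, RanBP3, ave, Slbp and CG1671, and the nearest TSS of each gene lay within 250 bp of the summit. Such promoters were common among bound genes: of the 1898 protein-coding genes with an optimal peak, 1281 had a head-to-head neighbour. A neighbour was also annotated at 22 of the 32 canonical subunits, with or without a peak. Counted by peaks and on either strand, 621 of 1476 optimal peaks at protein-coding TSSs (42.1%) lay within 1 kb of the TSSs of at least 2 protein-coding genes. The summit was nearer to the neighbour's TSS than to that of the proteasome gene at 4 of the 6. When a peak counted for the nearest TSS only, Rpn3 and Rpn2 alone were left (4.17% of 48), against 9.13% of all protein-coding genes. Whether a peak belongs to one gene of a pair or to the other cannot be told apart from its position.

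The DNA between the paired TSSs is shown for the 4 pairs on 2L and 3R, because these short stretches serve both genes. Each is read 5′ to 3′ on the strand of the proteasome gene, from RefSeq's copy of the dm6 assembly, with the neighbour's TSS at the left end and that of the proteasome gene at the right. Capitals mark the word AAACTA, a word ascribed to the Z3 isoform of Broad, in the Rpn2 sequence, and the second copy of a repeat in the Rpn3 sequence. The coordinates are chr3R:23752835-23752875 for Rpt5, chr3R:5789385-5789492 for Rpn5, chr3R:29153267-29153523 for Rpn2 and chr2L:19051613-19051789 for Rpn3, all with the proteasome gene on the plus strand.
RanBP3 to Rpt5: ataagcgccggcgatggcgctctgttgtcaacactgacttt
Hat1 to Rpn5: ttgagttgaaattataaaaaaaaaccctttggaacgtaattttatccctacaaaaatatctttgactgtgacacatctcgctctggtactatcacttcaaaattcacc
Slbp to Rpn2: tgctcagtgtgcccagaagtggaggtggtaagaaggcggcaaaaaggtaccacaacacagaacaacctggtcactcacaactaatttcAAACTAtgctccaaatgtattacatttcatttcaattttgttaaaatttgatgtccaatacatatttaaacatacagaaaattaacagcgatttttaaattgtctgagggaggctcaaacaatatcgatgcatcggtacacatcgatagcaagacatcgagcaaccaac
l(2)37Bb to Rpn3: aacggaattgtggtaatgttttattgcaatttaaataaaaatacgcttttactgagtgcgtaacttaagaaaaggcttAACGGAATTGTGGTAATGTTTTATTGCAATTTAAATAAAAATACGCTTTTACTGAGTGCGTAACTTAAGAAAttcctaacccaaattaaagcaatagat

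These stretches ranged from 41 bp at Rpt5 to 257 bp at Rpn2. The Rpn3 gap holds an exact direct repeat of 72 bp, whose copies start 78 bp apart, and no direct repeat of 8 bp or more was found in the other 3. How reads were placed in this repeat was not analysed here. The summit lay between the TSSs at Rpt5 and Rpn2, as it did at Prosalpha7 and, for its nearer TSS, at Rpn6, whose sequences are not shown. It lay 31 bp inside the transcribed side of Rpn3, and at the Rpn5 pair 129 bp inside Hat1.

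**Figure D1:**
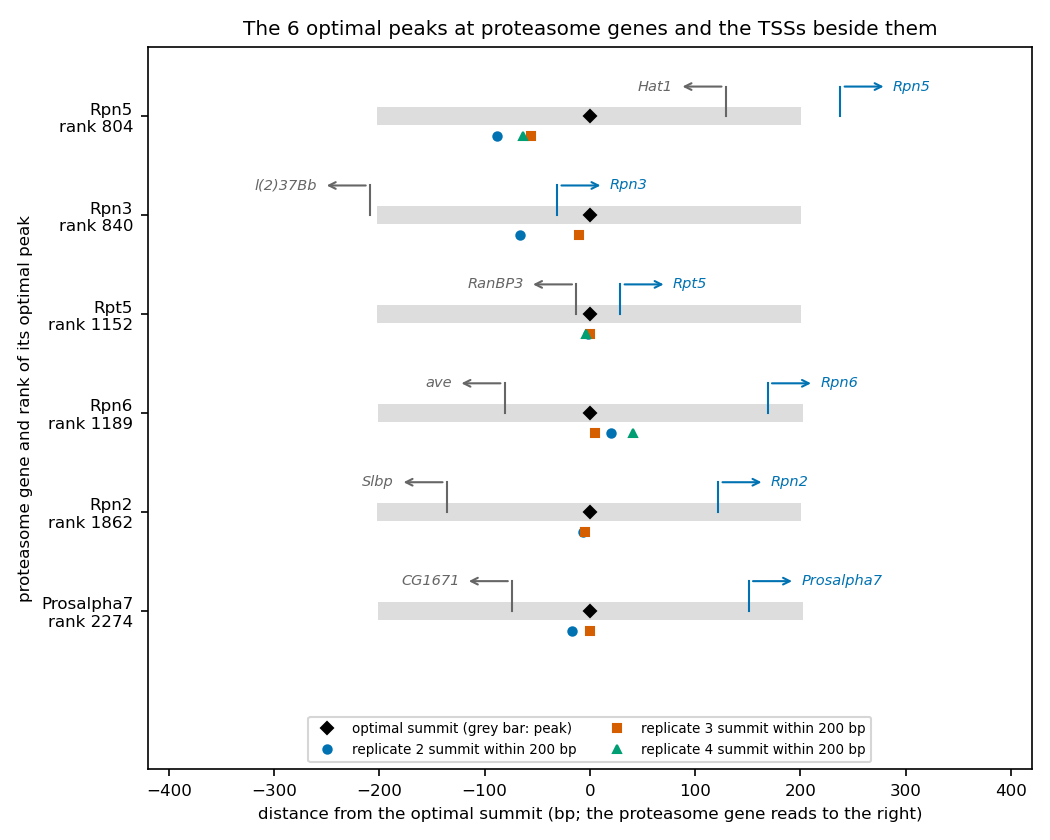
The 6 optimal peaks at proteasome genes, each drawn around its optimal summit (black diamond at 0 bp). Rows are turned so that the proteasome gene (blue arrow) reads to the right. The x axis is the distance in bp, grey bars are the peaks of 404 bp and grey arrows the neighbouring TSSs. Only the TSS nearest to the summit is drawn for each gene. Coloured points are the best-ranked summit of each replicate within 200 bp, so the second region at Rpn5 is not drawn. In all 6 rows the paired TSSs point away from each other; the summit lies between them in 4 rows and to one side of both at Rpn5 and Rpn3, and replicate 4 has a summit in 3 rows.

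Among the regulatory particle genes, Rpn5, which encodes a subunit of the lid, had the strongest peak. It spans chr3R:5789053-5789456, ranked 804 (signal 161), and its summit lay 238 bp upstream of the Rpn5 TSS and 129 bp downstream of that of Hat1, which encodes a histone acetyltransferase. The region ranked 2054, 1214 and 446 in replicates 2, 3 and 4, with signals of 49.2, 42.7 and 64.7. It was among the top 2533 regions of every replicate, and strongest by rank in replicate 4. A second, weaker region had its summit between the TSSs of Hat1 and Rpn5, at rank 4725 in the pooled list. Replicates 2, 3 and 4 had one between these TSSs too, at ranks 2168, 2295 and 3348, a top region in replicates 2 and 3.

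Rpt5, an ATPase of the ring that unfolds substrates, was the other gene with such support. Its peak at chr3R:23752645-23753048 ranked 1152 (signal 134), 29 bp upstream of its TSS and 13 bp upstream of that of RanBP3, which encodes a Ran-binding protein. In replicates 2, 3 and 4 it ranked 995, 2398 and 1670, with signals of 69.3, 33.1 and 29.5. Replicate summits lay within 4 bp of the optimal summit in all replicates, and replicate 2 had the highest rank.

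Rpn3, a further lid subunit, had a peak at chr2L:19051619-19052022 that ranked 840 (signal 157). It ranked 1243 and 589 in replicates 2 and 3, with signals of 62.3 and 56.7. Replicate 4 had no region within 1 kb of this TSS, so the peak was supported by the top regions of 2 replicates.

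Rpn6, a lid subunit that in yeast clamps the lid to the core particle, had a peak at chr2R:14752238-14752641. It ranked 1189 (signal 132), 169 bp upstream of the nearer of the 2 Rpn6 TSSs. Its summit lay 81 bp upstream of the TSS of ave, an adaptor gene of Ras and Raf signalling. The outer Rpn6 TSS, at chr2R:14752910, lies beyond that of ave, so from it the summit is downstream, inside the gene. The region ranked 2870, 1690 and 746 in replicates 2, 3 and 4, with signals of 41.5, 38.0 and 47.7. It fell just outside the top regions in replicate 2 and was strongest by rank in replicate 4.

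Rpn2, a large scaffold of the base, shared its peak at chr3R:29153200-29153603 with Slbp, which encodes the histone mRNA stem-loop binding protein. The peak ranked 1862 (signal 104), 122 bp upstream of Rpn2 and 136 bp upstream of Slbp. It ranked 2919 and 1223 in replicates 2 and 3, with signals of 41.2 and 42.6, and replicate 4 had no region there. Only replicate 3 held it among its top regions.

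Prosalpha7, of the alpha ring, had the weakest of the 6 peaks, at chr2R:9847785-9848188. It ranked 2274 (signal 93.6), 151 bp upstream of Prosalpha7 and 74 bp upstream of CG1671. It ranked 3443 and 2118 in replicates 2 and 3, with signals of 37.9 and 34.7, and had no region in replicate 4. Again only replicate 3 held it among its top regions.

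Support was thus uneven between replicates. Top regions lay at 3 proteasome genes in replicate 2 (6.25%), 8 in replicate 3 (16.7%) and 4 in replicate 4 (8.33%), beside 11.4%, 16.1% and 12.6% of all protein-coding genes. The mean was 5 ± 2.65 genes (SD, n = 3 replicates), or 10.4% ± 5.51, against 13.4% ± 2.43 of all protein-coding genes, a difference smaller than the spread between replicates. Rpn5 and Rpt5 alone had a top region in all 3 replicates (4.17% of 48, beside 5.61% of all protein-coding genes). At least 2 replicates gave a top region at 4 genes (8.33%, beside 11.2%), the further ones being Rpn3 and Rpn6.

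**Figure D2:**
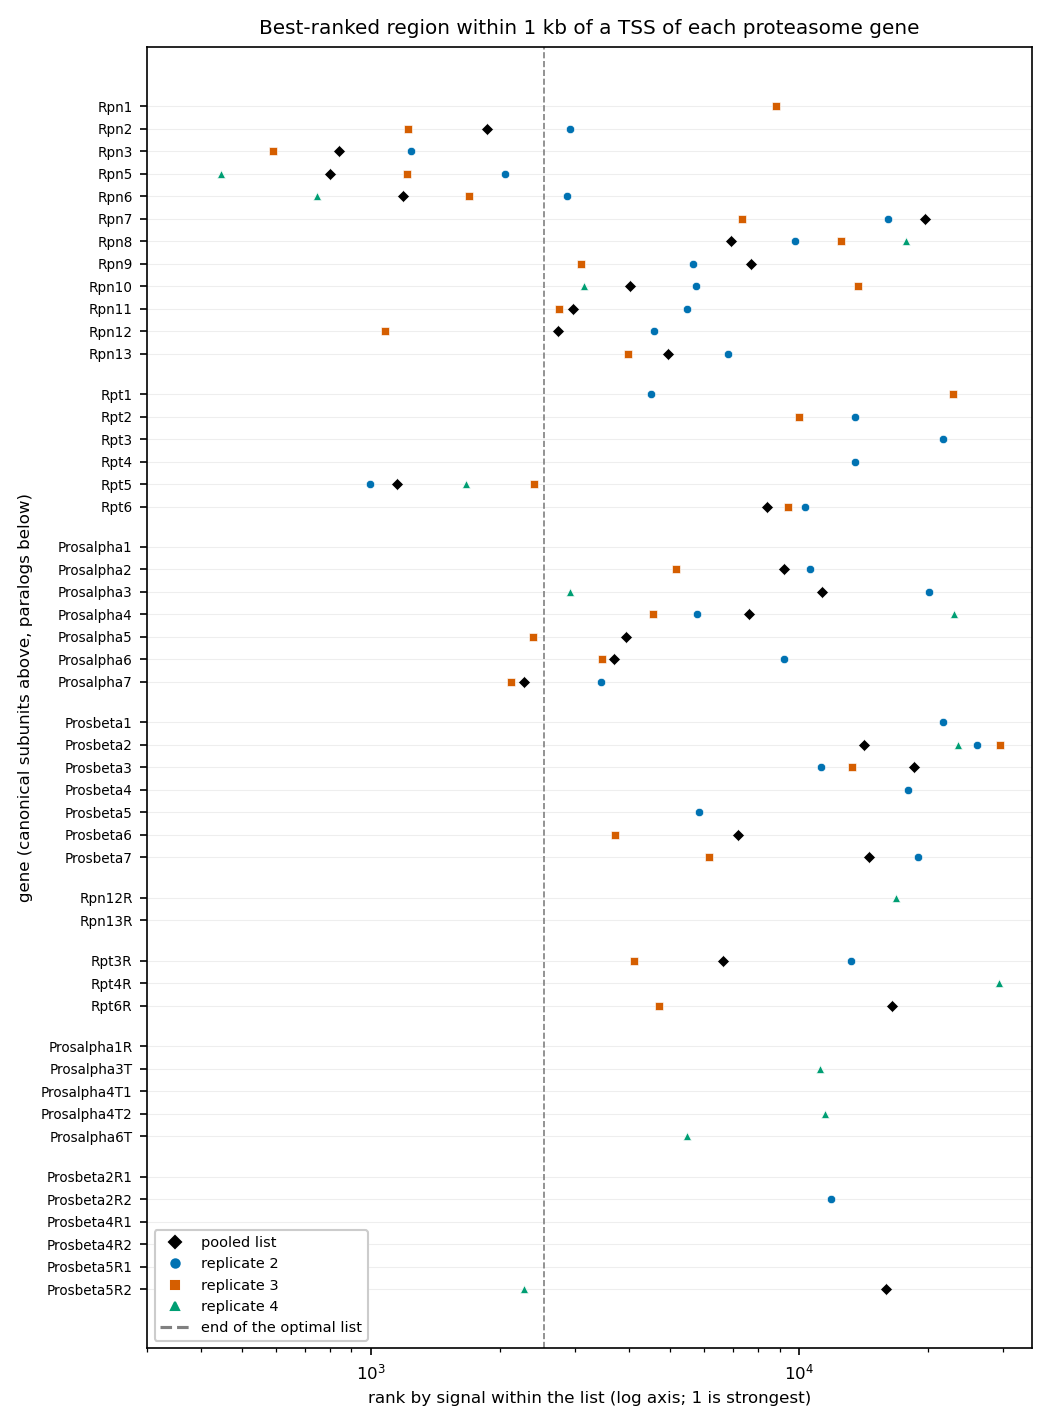
Rank by signal (log x axis, strongest at the left) of the best region within 1 kb of a TSS for each of the 48 proteasome genes (rows, grouped by ring or subcomplex), in the pooled list and in replicates 2, 3 and 4; a missing point means no region in that list, and the dashed line is the end of the optimal list at rank 2533. Most canonical subunits have points to the right of the line, whereas most paralog rows are empty or hold 1 point of replicate 4.

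Below the optimal list, most canonical subunits had a weaker region. The pooled list placed a region at 26 of the 48 genes (54.2%), beside 54.8% of all protein-coding genes. The canonical subunits held 23 of these (71.9% of 32) and the paralogs 3 (18.8% of 16). The median best rank was 4948 over the canonical subunits with a region and 6164 over all protein-coding genes with one. These medians leave out genes with no region. The nearest ranks outside the optimal list were those of Rpn12 at 2727 and Rpn11 at 2968, and the nearest inside was that of Prosalpha7 at 2274.

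Of the 12 canonical Rpn genes, 11 had a region in the pooled list (91.7%, beside 54.8% of all protein-coding genes). Besides the 4 with an optimal peak, Rpn12, of the lid, ranked 2727 in the pooled list, and 4576 and 1077 in replicates 2 and 3. Rpn11, the deubiquitinase, ranked 2968, and 5481 and 2746 in these replicates. The ubiquitin receptor genes Rpn10 and Rpn13 ranked 4031 and 4948. Rpn10 was one of the few with a region in all replicates, at ranks 5736, 13692 and 3140 in replicates 2, 3 and 4. Rpn8 ranked 6917, Rpn9 7737 and Rpn7 19690. Rpn1, the other scaffold of the base, had a region in replicate 3 only, at rank 8846.

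The ATPase genes differed among themselves although their products form 1 ring. Besides Rpt5, only Rpt6 had a pooled region, at rank 8392, which made 2 of 6 (33.3%, beside 54.8% of all protein-coding genes). Rpt1 ranked 4515 in replicate 2 and 22912 in replicate 3, and Rpt2 ranked 13496 and 9988. Rpt3 and Rpt4 had a region in replicate 2 only, at ranks 21726 and 13543. None of these 5 had a region in replicate 4.

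In the core particle, 6 of 7 canonical alpha genes (85.7%) and 4 of 7 canonical beta genes (57.1%) had a pooled region. The share of all protein-coding genes was 54.8%. These groups are small, and differences between subcomplexes were not tested. Prosalpha6 ranked 3685, Prosalpha5 3938, Prosalpha4 7621, Prosalpha2 9219 and Prosalpha3 11317. Prosalpha5 entered the top regions of replicate 3, at rank 2392, and had none in replicates 2 and 4. Prosalpha1 was the only canonical subunit with no region in any list.

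Among the beta genes, whose products form the inner rings, the canonical genes with a pooled region had a median best rank of 14380. It was 6164 over all protein-coding genes with one. In the pooled list Prosbeta6 ranked 7185, Prosbeta2 14213, Prosbeta7 14547 and Prosbeta3 18515. Prosbeta6 ranked higher in replicate 3, at 3723. Of the proteolytic subunits, Prosbeta1 and Prosbeta5 had a region in replicate 2 only, at ranks 21658 and 5842, as did Prosbeta4 at 18010. No canonical beta gene had a top region in any replicate (0 of 7). The shares of all protein-coding genes were 11.4%, 16.1% and 12.6% in replicates 2, 3 and 4, and 7 genes are too few to differ clearly from these.

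The pooled list held a region at only 3 of the 16 paralogs. Rpt3R ranked 6633, Prosbeta5R2 15996 and Rpt6R 16443 in the pooled list. Of the 16 paralogs, 7 had no region in any list, namely Prosalpha1R, Prosalpha4T1, Prosbeta2R1, Prosbeta4R1, Prosbeta4R2, Prosbeta5R1 and Rpn13R. Replicates 2, 3 and 4 gave a region at 2, 2 and 6 paralogs. Of the paralogs with no pooled region, Prosbeta2R2 ranked 11859 in replicate 2. In replicate 4, Prosalpha6T ranked 5471, Prosalpha3T 11187, Prosalpha4T2 11476, Rpn12R 16817 and Rpt4R 29231. The only top region was that of Prosbeta5R2 in replicate 4, at rank 2273 and 940 bp downstream of its TSS.

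The lists of all 30000 regions showed how far replicate 4 differed. Canonical subunits had a region in 28, 25 and 8 cases of 32 in replicates 2, 3 and 4 (87.5%, 78.1% and 25%), where all protein-coding genes had 59.1%, 59.1% and 46.5%. The canonical share was above that of all genes in replicates 2 and 3 and below it in replicate 4. For the paralogs the shares were 12.5%, 12.5% and 37.5%, below that of all genes in each replicate. Cytosolic ribosomal protein genes also had their lowest share in replicate 4, at 58.7% against 92.4% and 90.2%. The mean for the canonical subunits was 63.5% ± 33.7 (SD, n = 3) and that for all protein-coding genes 54.9% ± 7.3, so that the means differed by less than the spread between replicates.

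A region in all 3 replicates was found at 7 proteasome genes (14.6%, beside 27.7% of all protein-coding genes). These were Rpn5, Rpn6, Rpn8, Rpn10, Rpt5, Prosalpha4 and Prosbeta2. Without replicate 4 the count of genes was 23 (47.9%, beside 48.4%), made up of 22 canonical subunits and Rpt3R.

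**Figure D3:**
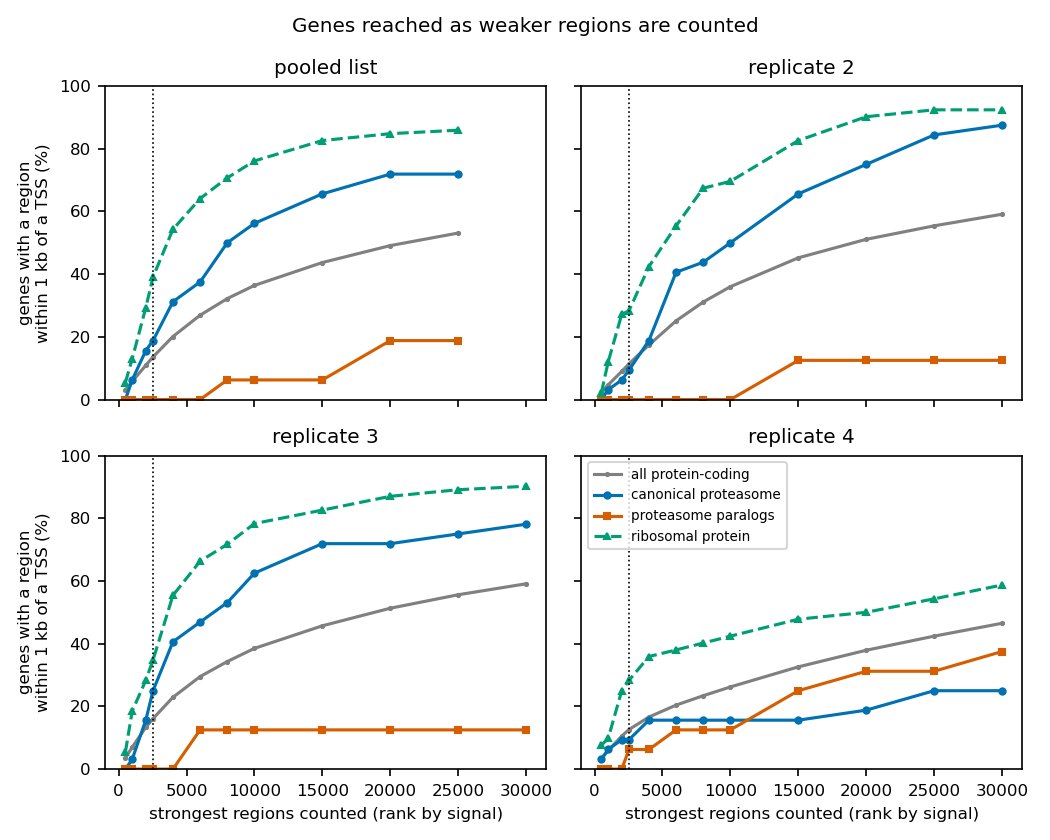
Percentage of genes with a region within 1 kb of a TSS (y axis) as more of the strongest regions of a list are counted (x axis, rank by signal), for canonical proteasome genes, proteasome paralogs, ribosomal protein genes and all protein-coding genes in the pooled list and each replicate; the dotted line marks rank 2533. In replicates 2 and 3 the canonical line ends above that of all genes, at 87.5% and 78.1%, and in replicate 4 it ends below it, at 25%.

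Regions at canonical subunits lay close upstream of the TSS. In the pooled list 30 of 32 pairs of a region and a canonical gene (93.8%) had the summit upstream, beside 69.7% of all such pairs at protein-coding genes, and the median distance was 142 bp beside 257 bp. The upstream share was 82.2%, 97.1% and 80% in replicates 2, 3 and 4, beside 62.4%, 68.3% and 64.5%. The 6 summits of optimal peaks lay a median of 136 bp from the TSS, beside 182 bp over all protein-coding genes with such a peak. The regions at paralogs in replicate 4 lay elsewhere, with 0 of 6 upstream and a median of 620 bp. Paralog genes are 881 to 1778 bp long.

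The canonical subunits and the paralogs also differed in their neighbours. A head-to-head neighbour was annotated at 22 of 32 canonical subunits (68.8%), 4 of 16 paralogs (25%) and 39.3% of all protein-coding genes. Of the canonical genes with such a neighbour 6 of 22 had an optimal peak (27.3%), and of the 10 without one none had. Among all protein-coding genes these shares were 23.3% and 7.27%. For pooled regions the order at the canonical genes was the other way round, with 68.2% of those with a neighbour and 80% of those without, beside 69.3% and 45.4% of all protein-coding genes. What part the neighbours have in the counts was not tested.

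The promoters were searched for 8 words, and the counts differed most for TATCGATA, the word of the DNA replication-related element, which the factor Dref binds in flies. The word is its own reverse complement. It was found in 12 of 32 canonical promoters (37.5%), in 0 of 16 paralog promoters and in 9.35% of all 13980 protein-coding promoters of the same length. Cytosolic ribosomal protein promoters held it in 30.4% of cases. The 12 genes were Rpn3, Rpn7, Rpn9, Rpn12, Rpn13, Rpt5, Prosalpha3, Prosalpha5, Prosalpha6, Prosbeta1, Prosbeta2 and Prosbeta6. They come from every subcomplex. The word is printed here, in capitals and with 10 bases on each side, for the 8 genes that lie on 2L, 3L and 3R, from RefSeq's dm6 sequence on the strand of the gene, to let its setting be compared.
Rpt5: tcgctgtcacTATCGATAagcgccggcg
Rpn3: gttatcggagTATCGATAtcgaaaaggc
Rpn7: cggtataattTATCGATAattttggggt
Rpn9: cccggttaaaTATCGATAttctcgcgga
Rpn12: tgttaaaataTATCGATAttaaagcaca
Prosalpha6: ccgaatccctTATCGATAcccgatacac
Prosbeta2: catgaatataTATCGATAcaatatcgat
Prosbeta6: tatgtataccTATCGATAacgtttaagc

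The word started between 217 bp upstream of the TSS, at Rpn13, and 26 bp downstream of it, at Rpn9. At 10 of the 12 genes it started upstream. A pooled summit lay within 100 bp of the word's centre at 9 of the 11 genes that had a pooled region, and at Rpt5 it lay 13 bp away. No such share over all protein-coding promoters with the word is given here. The word was sought only near the TSS, where most of these summits lie, so this closeness alone does not link them. At Rpt5 the word covers the TSS of RanBP3. Summit windows of 100 bp to either side held the word at 11 of 32 pooled summits at canonical subunits (34.4%), beside 520 of 10626 pooled nuclear summits within 1 kb of a protein-coding TSS (4.89%). Of the 6 optimal summits at proteasome genes 2 held it (33.3%), beside 80 of 1460 optimal nuclear summits within 1 kb of such a TSS (5.48%). Windows of head-to-head genes overlap, so these promoters are not separate sequences.

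The word did not separate canonical genes with an optimal peak from those without. It was in 2 of 6 promoters with a peak (33.3%) and in 10 of 26 without (38.5%). The promoter is that of the outermost TSS. At Rpn6, Rpn8 and Rpn9 the best pooled region was assigned to another TSS, whose promoter was not searched. The word was more frequent with a pooled region, at 11 of 23 genes (47.8%) against 1 of 9 without (11.1%), beside 12.5% and 5.47% of all protein-coding genes. These counts are descriptions, and a match is not evidence of a bound site.

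**Figure D4:**
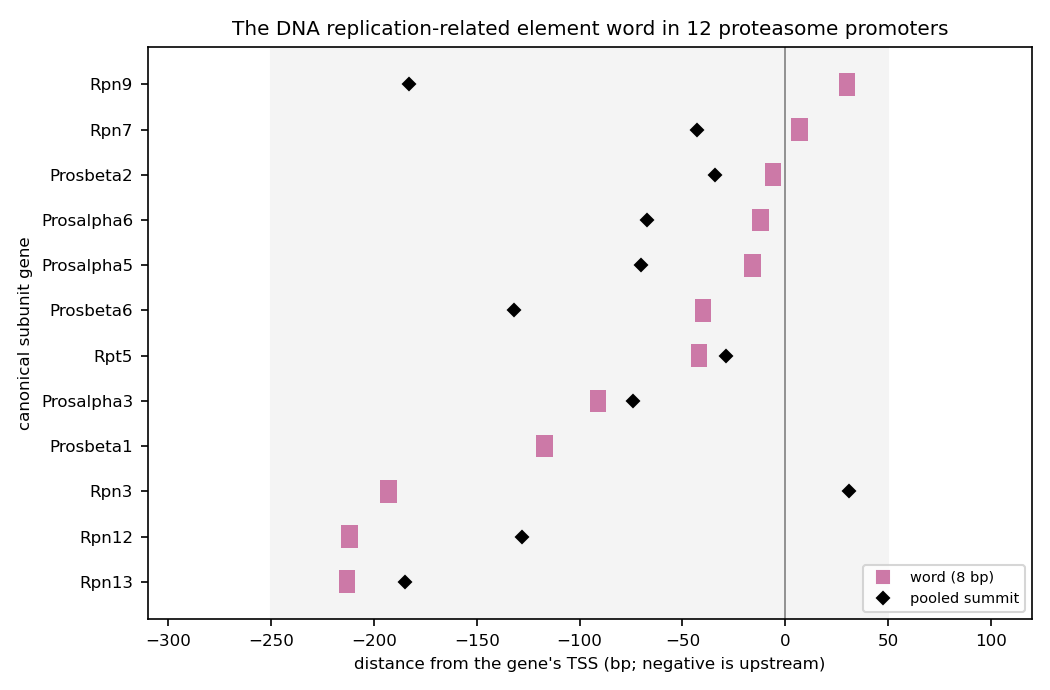
Position of the word TATCGATA (pink bars of 8 bp) and of pooled summits (black diamonds) relative to the TSS of the 12 canonical subunit genes whose promoter window (grey band, 250 bp before to 50 bp after the TSS) holds it; the x axis is the distance in bp. The word starts upstream of the TSS in 10 rows, and Prosbeta1 has no pooled summit. In the Rpn9 row the word is placed from the outermost TSS but the summit from the gene's other TSS. Their spacing in that row is therefore not the true one. The summit lies downstream of the outermost TSS, 239 bp from the word's centre.

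The Broad words differed less between proteasome and other promoters. CTATTT, the word of isoform Z2, was in 27.1% of the 48 promoters and in 27% of all, with 21.9% of the canonical subunits. AAACTA, that of Z3, was in 31.2% and 27.4%, with 40.6% of the canonical subunits and 12.5% of the paralogs. GTAAACA, that of Z4 and also the forkhead core, was in 12.5% and 9.18%, with 12.5% of the canonical subunits. The zinc fingers of the tagged form were not established here, so none of these words can be taken as its own.

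Of the other words, GGTCACAC, known as an M1BP site, was in 5 canonical promoters (15.6%, beside 7.68% of all). These were Prosalpha2, Prosalpha4, Prosbeta3, Rpn1 and Rpn7. TGACNNNGC, the core of the antioxidant response element bound by Cnc and its Maf partner, was also in 5 canonical promoters (15.6%, beside 8.61%), namely Prosalpha2, Prosbeta3, Rpn1, Rpn7 and Rpt6. None of the 6 genes with an optimal peak had it in the window searched, and none of the 6 optimal summits had it within 100 bp. At Rpn6 the window, set by the outermost TSS, does not reach the peak. The E-box CACGTG was in none of the 48 (4.19% of all) and GAGAGA, the word of the GAGA factor, was in no canonical promoter (12.3% of all). Cytosolic ribosomal protein promoters held GGTCACAC, TGACNNNGC, CACGTG and GAGAGA in 15.2%, 5.43%, 8.7% and 4.35% of cases.

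A list of 23 genes that assemble, regulate or supply the proteasome was read in the same way, of which RpS27A and RpL40 also count among the ribosomal protein genes. Optimal peaks lay at 3 of them (13%), beside 13.6% of all protein-coding genes: cnc, Keap1 and RpS27A. The gene cnc encodes the Nrf-type factor that, in flies as in mammals, activates proteasome genes, and Keap1 encodes its inhibitor. The peak at cnc ranked 616 in the optimal list, with its summit 396 bp downstream of a TSS. It ranked 1028, 420 and 580 in replicates 2, 3 and 4, at 357, 373 and 354 bp downstream. All replicates thus placed a top region at the same start of cnc.

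The peak at Keap1 ranked 756, with the summit 43 bp upstream of a TSS. The best regions of replicates 2, 3 and 4 ranked 1434, 500 and 2020, at 912, 27 and 777 bp upstream. Each is a top region, but those of replicates 2 and 4 lie at another place than that of replicate 3. RpS27A, which encodes ubiquitin fused to a ribosomal protein, ranked 2186 in the optimal list and 12548 and 840 in replicates 2 and 3, with no region in replicate 4. In top regions, cnc and Keap1 were the only 2 of the 23 found in all 3 replicates (8.7%, beside 5.61%).

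The other 20 genes of the list had no optimal peak. Single replicates placed a top region at some of them: replicate 2 at Ubqn, replicate 3 at Pomp and Ubi-p63E, and replicate 4 at PI31. Pooled regions lay at 20 of the 23 (87%, beside 54.8%), with a median best rank of 4739. The proteasome regulator gene PI31 ranked 3361 and ntc, whose F-box product binds PI31, ranked 3155. The polyubiquitin genes Ubi-p63E and Ubi-p5E ranked 3346 and 3404, and the core assembly chaperone gene Pomp ranked 4290. The lid subunit gene Sem1, which the symbol rule does not cover, ranked 10087. No pooled region lay at TER94, which encodes the segregase p97, at its cofactor gene Ufd1 or at maf-S, the Cnc partner. Replicates 2, 3 and 4 had a region at 21, 22 and 8 genes of the list (91.3%, 95.7% and 34.8%), so that replicate 4 was again the lowest.

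Set beside other families of widely used genes, the canonical subunits were nearer to all genes than the ribosomal protein genes were. Optimal peaks lay at 36 of 92 genes with ribosomal protein symbols (39.1%), 6 of 33 vacuolar proton pump genes (18.2%) and 8 of 44 translation initiation factor genes (18.2%), beside 18.8% of the canonical subunits. In top regions the means over replicates were 30.4% ± 3.77, 17.2% ± 3.5 and 12.9% ± 3.47 (SD, n = 3), beside 14.6% ± 9.02 of the canonical subunits. In every replicate the ribosomal share was above the canonical share, with 28.3%, 34.8% and 28.3% against 9.38%, 25% and 9.38%. The differences from the proton pump and initiation factor genes were smaller than the spread between replicates of the canonical subunits. None of these differences was tested.

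**Figure D5:**
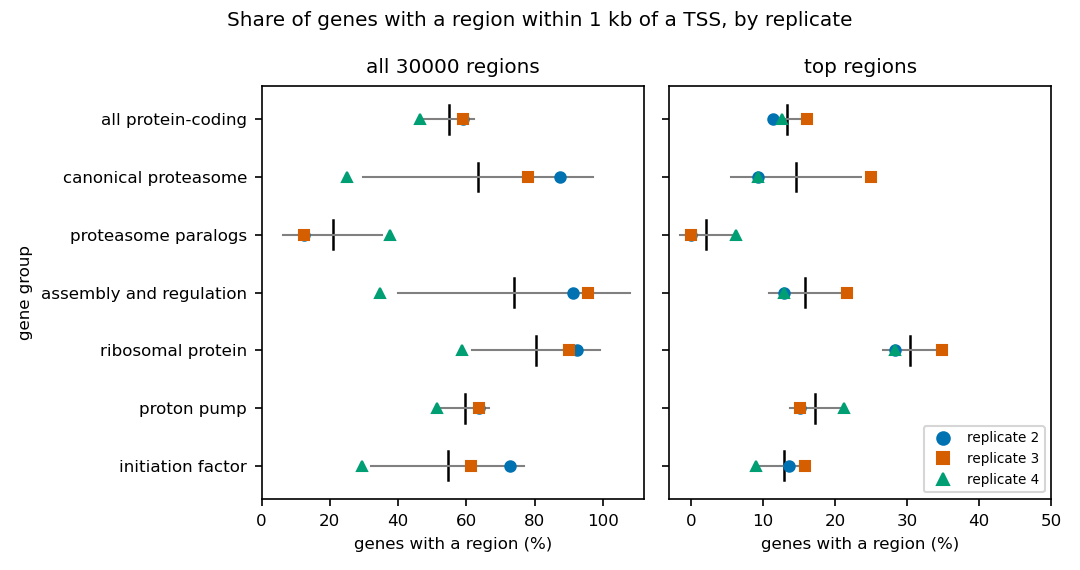
Percentage of genes with a region within 1 kb of a TSS (x axis) in replicates 2, 3 and 4 (points), with the mean (black tick) and SD (grey line, n = 3), for 7 gene groups; the left panel counts all 30000 regions of a replicate and the right panel the 2533 strongest. The canonical proteasome genes range from 25% to 87.5% on the left, and from 9.38% to 25% on the right, where the ribosomal protein genes lie between 28.3% and 34.8%.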

How the data were processed

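Chromatin immunoprecipitation sequencing of GFP-tagged Broad was deposited as lists of regions. The authors' files give a signal value per region, which ranked regions within a list, and a −log10 q-value, deposited by the authors and used only to describe peaks. The sources used here do not give the aligner, the peak caller or the scale of the signal. The optimal list is the 2533 strongest regions of the pooled list. The dm3 lists were not used here. The depth of reads is unknown and gave no measure of precision. The control library was not analysed here.

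Proteasome genes were taken by symbol from Ensembl release 115 on BDGP 6.54 (dm6 coordinates), without transposable elements and pseudogenes. All regions lay within the chromosomes of the RefSeq sequence of that assembly. A region was assigned to every gene with a transcription start site (TSS) up to 1000 bp from its summit. A replicate's top regions are its 2533 strongest. Regions of different lists were shared when their summits lay within 200 bp. A head-to-head neighbour has a TSS on the opposite strand, up to 1000 bp upstream. Words were sought on both strands from 250 bp before to 50 bp after the outermost TSS. There was 1 group, so no test between conditions was made, and lists of genes are described by counts beside all protein-coding genes. Alternatives changed the window, the TSSs, the strictness, the sharing distance, the assignment to the nearest TSS and the replicates. The assignment was tested on simulated regions. Python 3.11.15, numpy 2.4.6, pandas 2.3.3 and matplotlib 3.10.9 were used.

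The members, gene lists and words were chosen with earlier results of these data known. Every member with an optimal peak is described in full, and every other member by a rank or as one with no region. Of other genes, those that share a member's peak are named. Word counts at pooled summits, at summits near protein-coding TSSs and by binding, and the search for a repeat, were added after values were seen.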

Additional observations from a re-analysis of the deposited data

How the results depend on the processing

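Read depth is unknown and there was 1 group, so no p-value was computed, and no paired analysis was possible because there was no second group. The count of 6 proteasome genes, all canonical, with an optimal peak kept within 1.5 times (4 to 8 genes) with windows of 500 and 2000 bp, with outermost TSSs and in the stronger 50% of peaks. It fell to 2 with the nearest TSS only, and to 2 when a top region of all 3 replicates had to share the peak, at 100, 200 or 500 bp. Without 1 replicate, the peak being required in both others, 2 to 3 were left, over all genes and over canonical subunits alike, and fewer follow from that requirement. The mean of 5 genes per replicate fell to 2.67 in the stronger 50% of top regions, and fewer follow from the shorter lists. The 7 genes with a region in all 3 replicates became 14 with a window of 2000 bp, where more follow from the wider window. They became 7 to 23 without 1 replicate, the highest without replicate 4. Counts over all protein-coding genes under these settings are not given here, so the changes are not particular to proteasome genes. The median summit distance of 136 bp was 160 bp with summits within 2000 bp, which added Prosbeta6 and Rpn11. The paralog count stayed at 0 under the alternatives run.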
